A study of Mus musculus with 6 samples.

Results

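The preB-cell receptor kinases and adaptors comprise 9 genes of the signalling machinery below the preB-cell receptor, chosen by name out of 22098 gene symbols: Lyn, Blk, Sykb (the table's name for Syk), Btk, Blnk, Bank1, Pik3ap1, Pik3cd and Plcg2. Each gene was represented by its transcript with the highest mean value. All 9 were in the table, and all 9 were among the 10943 genes kept for testing, which had a mean of at least 1 RPKM (reads scaled to transcript length and library size).

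RNA was sequenced from proB cells sorted out of the bone marrow of C57BL/6 mice aged 6 to 7 weeks, with 1 library for each of 3 genotypes in each of 2 Hardy fractions, the stages into which early B-lymphocyte development is divided by surface markers. The genotypes were Ikaros_ZnF4-/- (the ZnF4 mutant), Ikaros_ZnF1-/- (the ZnF1 mutant) and wt. Ikaros, encoded by Ikzf1, is a zinc finger transcription factor needed for lymphocyte development, and each mutant lacks a single finger of its DNA-binding domain in all cells of the mouse. The fractions were C and C' sorted together, here fraction C, and the earlier fraction B. The labels used here give neither the number of mice behind a library nor the markers of the sort. With 1 library per genotype and fraction, no single difference is replicated within a fraction. The comparisons ask which RNAs of this signalling machinery depend on either finger.

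The preB-cell receptor forms when a rearranged immunoglobulin heavy chain pairs with the surrogate light chain and the Cd79a and Cd79b signalling chains. Src family kinases such as Lyn and Blk phosphorylate the Cd79 chains, Syk docks there and is activated, and Blnk then brings Btk and Plcg2 together, while Pik3ap1 recruits the phosphoinositide 3-kinase whose catalytic subunit is Pik3cd. The signal tests whether the heavy chain is functional and carries the cell through a burst of division into the preB stage.

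The promoter windows of the 4 members with RefSeq entries whose RNA differed most from wt in the ZnF4 libraries are given first, since Ikaros binds DNA around the letters GGGAA. Each runs from 250 bases before to 50 after a RefSeq start (RefSeq, build GRCm38.p6, not the mm9 build named for the values), 5′ to 3′ on the gene's strand. Capitals mark GGGAA or its reverse complement TTCCC. The windows are Sykb at chr13:52583187-52583486 (plus strand), Pik3ap1 at chr19:41385053-41385352 (minus), Bank1 at chr3:136326017-136326316 (minus) and Blnk at chr19:40994172-40994471 (minus).
Sykb: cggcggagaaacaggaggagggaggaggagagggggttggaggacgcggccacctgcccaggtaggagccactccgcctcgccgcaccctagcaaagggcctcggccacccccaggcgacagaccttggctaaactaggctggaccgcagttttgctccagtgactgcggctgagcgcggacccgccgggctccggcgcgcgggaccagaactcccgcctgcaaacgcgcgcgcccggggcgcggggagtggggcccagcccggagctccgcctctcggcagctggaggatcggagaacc
Pik3ap1: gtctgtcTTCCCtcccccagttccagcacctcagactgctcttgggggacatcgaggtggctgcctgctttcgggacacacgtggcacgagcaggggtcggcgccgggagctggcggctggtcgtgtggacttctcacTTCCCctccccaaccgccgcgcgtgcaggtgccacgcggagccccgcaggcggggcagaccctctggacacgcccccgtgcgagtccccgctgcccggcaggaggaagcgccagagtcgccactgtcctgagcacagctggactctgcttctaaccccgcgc
Bank1: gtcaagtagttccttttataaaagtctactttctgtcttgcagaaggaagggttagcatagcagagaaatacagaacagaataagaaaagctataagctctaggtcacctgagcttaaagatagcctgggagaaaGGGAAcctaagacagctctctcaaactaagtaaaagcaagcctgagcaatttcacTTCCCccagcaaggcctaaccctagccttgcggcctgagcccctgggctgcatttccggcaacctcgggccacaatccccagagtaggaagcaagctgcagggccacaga
Blnk: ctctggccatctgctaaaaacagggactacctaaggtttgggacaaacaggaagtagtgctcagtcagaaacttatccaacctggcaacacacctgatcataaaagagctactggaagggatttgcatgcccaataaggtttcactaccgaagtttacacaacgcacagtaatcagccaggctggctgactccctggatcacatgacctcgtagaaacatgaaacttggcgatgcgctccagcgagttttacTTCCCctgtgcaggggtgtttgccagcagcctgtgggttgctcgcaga

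RefSeq windows were matched for 7 of the 9 members, 10 windows in all, with Lyn and Blk unmatched. Read on both strands, GGGAA occurred in 8 of the 10 windows, against 62.7% of 32851 promoter windows of the same length. The longer TGGGAA, which contains it, occurred in 4 of 10, against 25.6%. Pik3ap1 and Bank1 each held 2 GGGAA matches, Blnk held 1 and the Sykb window shown held 0, while a second Sykb window further downstream held 1. The E-box CAGGTG, bound by E proteins, occurred in 8 of 10 windows, against 20.2%. Every matched member other than Btk had it in at least 1 window. GAGGAA, a core of PU.1 sites, was found in 3 windows (28.3% of all) and CCCNNGGG, a core of EBF sites, in 2 (13.7%). These are letter matches and not measured binding.

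Facts of the libraries that touch these genes are as follows. Ikzf1 stood at 425.1 (ZnF4), 154.1 (ZnF1) and 169.4 RPKM (wt) in fraction C, and at 431.6, 181.5 and 150.3 RPKM in the same order in fraction B. These values do not resolve the altered finger and so do not check the genotype labels. All 12 B-lineage markers were measured above 0 in every library. The ZnF1 library of fraction C stood apart. Its 20 granulocyte and monocyte markers summed to 44735.5 RPKM, against 2809.1 in wt, and all 20 were higher than in wt, while over the other libraries the sum ran between 1059.5 and 4016.8. The erythroid markers summed to 4358.8 RPKM there, against 337.3 in wt, with 11 of 11 higher. The 12 B-lineage markers summed to 2707.8 RPKM in ZnF1 and 3435.1 in wt in fraction C, with 3 of 12 higher in ZnF1, and to 5614.2 and 3935.4 in fraction B, with 9 of 12 higher. Xist was listed at 0 in all 4 mutant libraries and stood at 91.9 and 81.3 RPKM in wt, and Eif2s3y on the Y chromosome was at 34.4 RPKM or more in the mutants and listed at 0 in wt, so sex and genotype cannot be told apart in the comparisons against wt. In the ZnF4 libraries the B-lineage markers summed to 6106.1 RPKM in fraction C and 6399.4 in fraction B, against 3435.1 and 3935.4 in wt, with 11 of 12 higher in each fraction. Blnk, itself a member, is on this marker list and was the exception in both fractions. The granulocyte and monocyte markers summed to 1819.4 and 1059.5 RPKM in the ZnF4 libraries, against 2809.1 and 4016.8 in wt (fractions C and B), and 11 markers of NK and cytotoxic cells to 9.8 and 2.6 RPKM, against 54.9 and 106.2. Of these 11, 2 were listed at 0 in ZnF4 in fraction C and 8 in fraction B, Ncr1 and Tbx21 among them in both. The part of these differences in the members' values was not tested.

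On the RPKM scale, which is per length and so allows genes to be compared, Sykb was highest with a mean of 308.42 over the 6 libraries, above 99.4% of the genes kept. Blnk (231.62), Pik3ap1 (199.63), Pik3cd (137.85) and Plcg2 (109.57) followed, then Blk (81.38), Btk (79.07) and Lyn (66.32). Bank1 stood far below at 8.4 RPKM, above 37.9% of the genes kept. This order of means did not hold in every library. Blnk was above Sykb in both wt libraries (215.0 and 178.8 RPKM in fraction C, 323.7 and 288.8 in fraction B) and in the ZnF1 library of fraction B, so that Sykb led in both ZnF4 libraries and in ZnF1 in fraction C. Blk was below Btk in both ZnF1 libraries and above it in the other 4. Plcg2 varied least, by 1.26-fold between its highest and lowest library, and Btk by 1.51-fold, whereas Bank1 varied by 5.59-fold, Blk by 5.23-fold and Sykb by 3.10-fold.

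**Figure D1:**
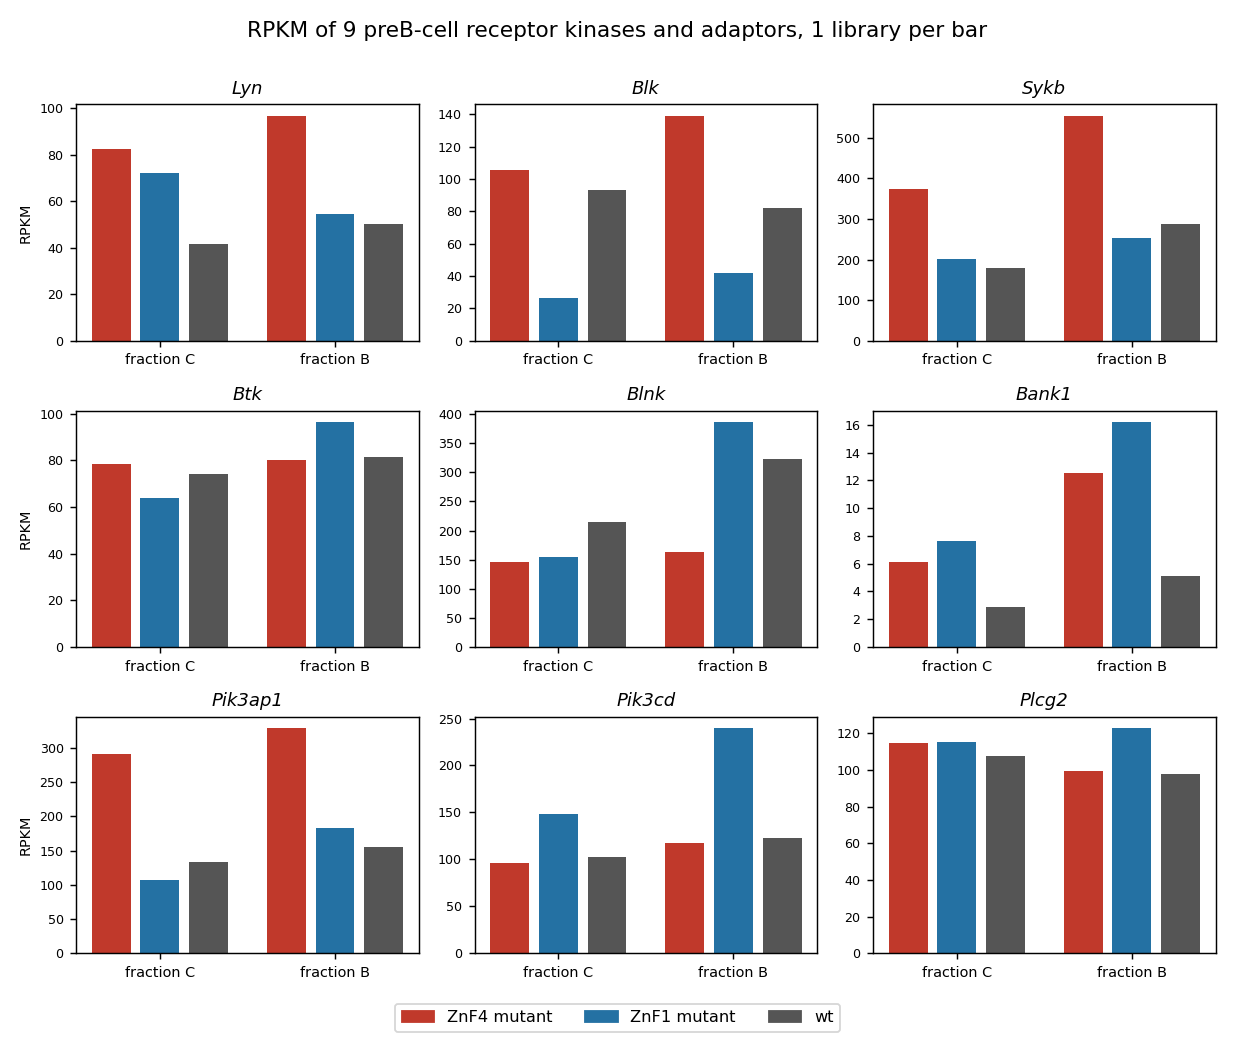
RPKM (linear axes from 0, one scale per gene) of each member, 1 bar per library, with fraction C on the left and fraction B on the right of each panel and the ZnF4 mutant, ZnF1 mutant and wt in that order. Lyn, Sykb and Pik3ap1 are highest in the ZnF4 libraries (Pik3ap1 at 291.0 and 328.4 RPKM), Blk is lowest in the ZnF1 libraries (26.6 and 41.7 RPKM), and Plcg2 stays between 97.6 and 122.7 RPKM.

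In the ZnF4 mutant the libraries held about 2-fold more RNA of the kinases Lyn and Syk and of the scaffolds Pik3ap1 and Bank1, less of the linker Blnk, and close to wt levels of Btk, Plcg2 and Pik3cd. Fold sizes are on the log2(RPKM + 1) scale, which understates changes of low genes such as Bank1. In sorted bulk RNA, more cells with a transcript and more transcript per cell cannot be told apart.

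Among the kinases, Sykb, which starts signalling from the phosphorylated Cd79 chains, stood at 373.0 RPKM in ZnF4 and 178.8 in wt in fraction C, and at 555.0 and 288.8 in fraction B. Both ZnF4 libraries lay above both wt libraries, by 2.08-fold in fraction C and 1.92-fold in fraction B. Lyn, a Src family kinase that both starts and restrains receptor signalling, was at 82.7 RPKM in ZnF4 and 41.5 in wt in fraction C, and at 96.9 and 50.1 in fraction B. The groups did not overlap, and the folds were 1.97 and 1.92. Blk, the Src family kinase most restricted to B cells, was at 105.8 RPKM in ZnF4 and 92.9 in wt in fraction C, and at 139.1 and 82.2 in fraction B. The groups did not overlap, although the fold in fraction C was only 1.14, against 1.68 in fraction B. Btk, the Tec family kinase that phosphorylates Plcg2, was at 78.4 RPKM in ZnF4 and 74.2 in wt in fraction C, and at 80.0 and 81.5 in fraction B. Its groups overlapped, with a difference of at most 1.06-fold. Btk is on the X chromosome, and the Xist and Y-linked values above differ between these groups.

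Among the adaptors, Pik3ap1 (BCAP), which links the receptor to phosphoinositide 3-kinase, was at 291.0 RPKM in ZnF4 and 133.8 in wt in fraction C, and at 328.4 and 154.8 in fraction B. On the log2(RPKM + 1) scale it was the one member at least 2-fold higher in both fractions (2.17-fold and 2.11-fold), 1 of 9 against 2.59% of all genes kept. With a pseudocount of 0.25 in place of 1, 2 members met this rule, Pik3ap1 and Bank1. Bank1, a scaffold of Lyn and of calcium release, was at 6.1 RPKM in ZnF4 and 2.9 in wt in fraction C, and at 12.5 and 5.1 in fraction B, which is 1.82-fold and 2.21-fold higher. For both genes each ZnF4 library lay above both wt libraries. Blnk (SLP-65), the linker that joins Syk to Btk and Plcg2, was at 146.6 RPKM in ZnF4 and 215.0 in wt in fraction C, and at 163.2 and 323.7 in fraction B. It was lower without overlap, by 1.46-fold and 1.98-fold, and 0 of 9 members were at least 2-fold lower in both fractions, against 4.73% of genes kept.

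Among the effector enzymes, Plcg2, the phospholipase that releases calcium and activates protein kinase C, was at 114.5 RPKM in ZnF4 and 107.6 in wt in fraction C, and at 99.6 and 97.6 in fraction B. Pik3cd, the p110 delta subunit, was at 95.9 RPKM in ZnF4 and 102.9 in wt in fraction C, and at 117.2 and 123.3 in fraction B. Both overlapped with wt and were within 1.08-fold of it in each fraction. Within fraction C alone, Sykb and Pik3ap1 were at least 2-fold higher in ZnF4 than in wt (3.55% of genes kept), and within fraction B Bank1 and Pik3ap1 (3.7%). Counted over all 9 members, the ZnF4 libraries lay above wt without overlap for 5 (27.7% of genes kept did so) and below for Blnk alone (33% of genes kept).

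No member passed in limma, fitted to all 10943 genes and all 6 libraries with genotype and fraction as terms (Benjamini-Hochberg adjusted p under 0.05, two-sided). The threshold was passed by 0 of 9 members and 0.0274% of all genes, while 4 of 9 members and 17.6% of all genes had an unadjusted p under 0.05. The limma estimates were 1.10 for Pik3ap1 (SE 0.25, adjusted p = 0.158), 1.01 for Bank1 (SE 0.20, 0.140), 1.0 for Sykb (SE 0.23, 0.163), 0.96 for Lyn (SE 0.24, 0.175) and -0.77 for Blnk (SE 0.34, 0.341). For the other members limma gave 0.47 for Blk (SE 0.25, adjusted p = 0.404), 0.06 for Plcg2 (SE 0.19, 0.883), 0.03 for Btk (SE 0.22, 0.956) and -0.09 for Pik3cd (SE 0.21, 0.843).

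The limma calls rested on which libraries set the spread. In the 4 ZnF4 and wt libraries alone, 5 of 9 members passed, 4 as higher (12.5% of all genes) and Blnk as lower (19.4%), with limma adjusted p = 0.00599 for Lyn, 0.00602 for Pik3ap1, 0.0084 for Sykb, 0.0123 for Bank1 and 0.0209 for Blnk, out of 13 alternatives that ran from 0.00599 to 0.9998 for Lyn and up to the same highest value for the other 4. The same 5 passed without the ZnF1 library of fraction C (31.6% of all genes) and without that of fraction B (30.8%), and 0 passed without any one of the ZnF4 or wt libraries. The members' log2 differences also depended on scaling: when the libraries were set equal on 8 B-lineage genes, which moved the median of all genes by -0.58, Lyn (0.29), Sykb (0.32), Bank1 (0.43) and Pik3ap1 (0.42) stayed positive, Blnk stood at -1.44, and Blk (-0.20), Btk (-0.64) and Plcg2 (-0.61) turned negative. By that scaling 91.2% of all genes were lower in ZnF4. At least 2-fold in both fractions, 0 members were higher (0.715% of all genes) and Blnk alone was lower (17.8%).

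**Figure D2:**
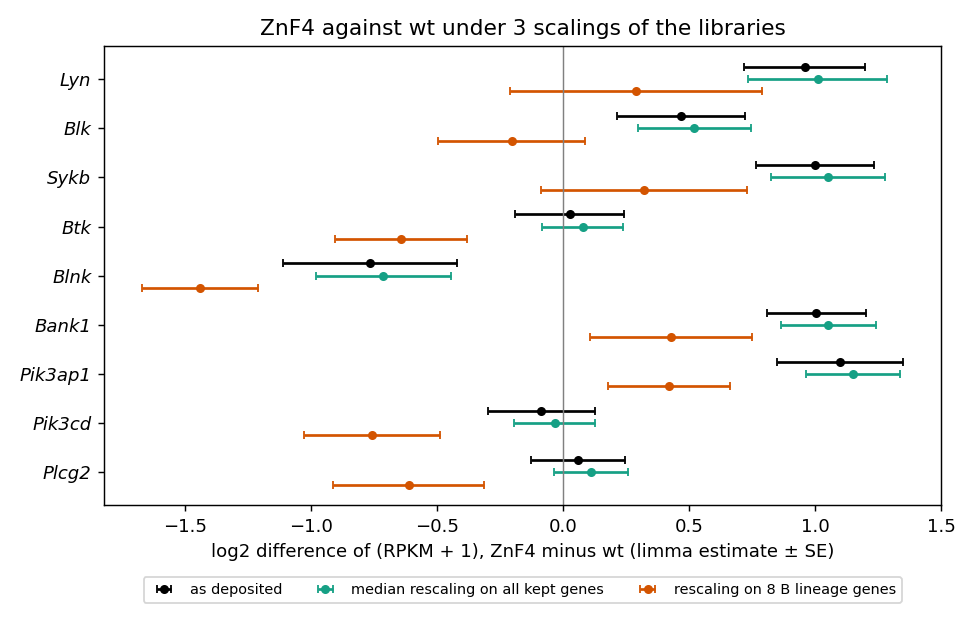
Log2 difference of (RPKM + 1), ZnF4 minus wt, for each member as the limma estimate with its standard error, under values as deposited, values rescaled on the median of all genes kept, and values rescaled on 8 B-lineage genes. The first 2 scalings nearly coincide, while rescaling on B-lineage genes shifts all members lower, with Pik3ap1 at 0.42 and Blnk at -1.44.

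In the ZnF1 mutant the members were arranged in another way, read against the same wt libraries as the ZnF4 mutant. The ZnF1 libraries held more Bank1 and Pik3cd RNA and less Blk RNA than wt in both fractions, whereas Sykb, Btk, Blnk and Pik3ap1 stood on opposite sides of wt in the 2 fractions. Bank1 was at 7.6 RPKM in ZnF1 and 2.9 in wt in fraction C, and at 16.2 and 5.1 in fraction B. It was 2.21-fold and 2.82-fold higher, the one member at least 2-fold higher in both fractions (0.758% of all genes kept). Pik3cd was at 148.3 RPKM in ZnF1 and 102.9 in wt in fraction C, and at 239.5 and 123.3 in fraction B, which is 1.44-fold and 1.94-fold higher without overlap. Blk was at 26.6 RPKM in ZnF1 and 92.9 in wt in fraction C, and at 41.7 and 82.2 in fraction B. It was 3.40-fold and 1.95-fold lower without overlap, and 0 of 9 members were at least 2-fold lower in both fractions (0.804% of genes kept; 1 of 9 and 7.39% in fraction C alone), with Blk alone past that mark when the libraries were rescaled on all genes (0.812% of them) or on B-lineage genes (1.01%).

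Lyn was at 72.3 RPKM in ZnF1 and 41.5 in wt in fraction C, and at 54.4 and 50.1 in fraction B. Its fold was 1.73 in fraction C, where the granulocyte and monocyte markers were high, and 1.08 in fraction B, where they summed to 1777.8 RPKM in ZnF1 and 4016.8 in wt. Lyn is a kinase of myeloid cells as well as of B cells. The part of myeloid cells in its value, and in those of the other members, was not tested. Plcg2 was at 115.4 RPKM in ZnF1 and 107.6 in wt in fraction C and at 122.7 and 97.6 in fraction B, at most 1.26-fold higher. Blnk was at 154.7 RPKM in ZnF1 and 215.0 in wt in fraction C, and at 386.5 and 323.7 in fraction B. It was 1.39-fold lower in fraction C and 1.19-fold higher in fraction B. Pik3ap1 (106.7 RPKM in ZnF1 and 133.8 in wt in fraction C, 183.1 and 154.8 in fraction B) and Btk (63.8 and 74.2, then 96.5 and 81.5) had the same arrangement, while Sykb (201.3 and 178.8, then 253.6 and 288.8) had the reverse. None of these 4 differed from wt by more than 1.39-fold in either fraction.

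Over the members, 4 lay above wt in both ZnF1 libraries without overlap (19.4% of genes kept) and Blk alone below (23.6%). In limma with all 6 libraries 0 of 9 members passed (0.0274% of all genes), and 3 had an unadjusted p under 0.05 (9.3% of all genes). The limma estimates were 1.32 for Bank1 (SE 0.20, adjusted p = 0.389), -1.36 for Blk (SE 0.25, 0.389), 0.74 for Pik3cd (SE 0.21, 0.505) and 0.45 for Lyn (SE 0.24, 0.549), and between -0.11 and 0.21 for Sykb, Btk, Blnk, Pik3ap1 and Plcg2. Leaving out the ZnF1 library of fraction C keeps fraction B as the one ZnF1 library, with its spread taken from the other groups. The estimates were then 1.43 for Bank1, 0.95 for Pik3cd, 0.13 for Lyn and -1.10 for Blk, and 0 members passed in limma (0.146% of all genes did). Without the ZnF1 library of fraction B, Bank1, Pik3cd and Lyn passed as higher (16.9% of all genes) and Blk as lower (20.7%).

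Set against each other, the mutants differed in Blk by over 3-fold in each fraction. Of the other members only Btk changed sides between the fractions, while the sizes of the other differences varied with the fraction. Blk was 3.87-fold higher in ZnF4 than in ZnF1 in fraction C (105.8 and 26.6 RPKM) and 3.28-fold in fraction B (139.1 and 41.7), the one member at least 2-fold higher in both fractions (3.11% of genes kept). It lay above wt in both ZnF4 libraries and below wt in both ZnF1 libraries. Pik3ap1 was 2.71-fold and 1.79-fold higher in ZnF4 than in ZnF1 (fractions C and B), Sykb 1.85-fold and 2.18-fold, and Lyn 1.14-fold and 1.77-fold. Pik3cd was 1.54-fold and 2.04-fold lower in ZnF4 than in ZnF1, and Blnk 1.06-fold and 2.36-fold lower. Within fraction C alone, Blk and Pik3ap1 were at least 2-fold higher in ZnF4 than in ZnF1 (7.41% of genes kept). Within fraction B, Blk and Sykb were higher (4.95%) and Blnk and Pik3cd lower (10.9%), and 0 members were at least 2-fold lower in both fractions (5.45%). Without regard to size, 4 members lay above ZnF1 in both ZnF4 libraries without overlap (24.5% of genes kept) and Pik3cd and Plcg2 below (27.5%). Bank1, higher than wt in both mutants, was 1.21-fold and 1.27-fold lower in ZnF4 than in ZnF1.

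In limma over all 6 libraries the Blk difference between the mutants was 1.83 (SE 0.25) with an adjusted p = 0.0556, and 0 of 9 members passed (1.82% of all genes), with an unadjusted p under 0.05 for 4 of 9 (22.7%). Next came Pik3ap1 with 1.14 (SE 0.25, limma adjusted p = 0.10), Sykb with 1.01 (SE 0.23, 0.109) and Pik3cd with -0.82 (SE 0.21, 0.126). Blk alone passed with a pseudocount of 0.25 (limma adjusted p = 0.0492, 2.45% of all genes) and after rescaling on all genes (0.0399, 3.22%), and over its 13 alternatives the limma adjusted p ran from 0.00391 to 0.528. Without the ZnF1 library of fraction C, 6 of 9 members passed, Lyn, Blk, Sykb and Pik3ap1 as higher (8.43% of all genes) and Blnk and Pik3cd as lower (16.1%). Without that of fraction B, 4 passed (37.5%), Blk, Sykb and Pik3ap1 as higher and Pik3cd as lower, while Lyn (limma adjusted p = 0.291) and Blnk (0.482) did not. In the 4 ZnF4 and ZnF1 libraries alone, and without any one of the ZnF4 or wt libraries, 0 members passed in limma. Rescaled on B-lineage genes, which moved the median of all genes by -0.645, Lyn (-0.20) and Btk (-0.69) turned negative, while 89.1% of all genes were lower in ZnF4. At least 2-fold in both fractions, 0 members were then higher (1.14% of all genes), and Blnk and Pik3cd were lower (11.6%).

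**Figure D3:**
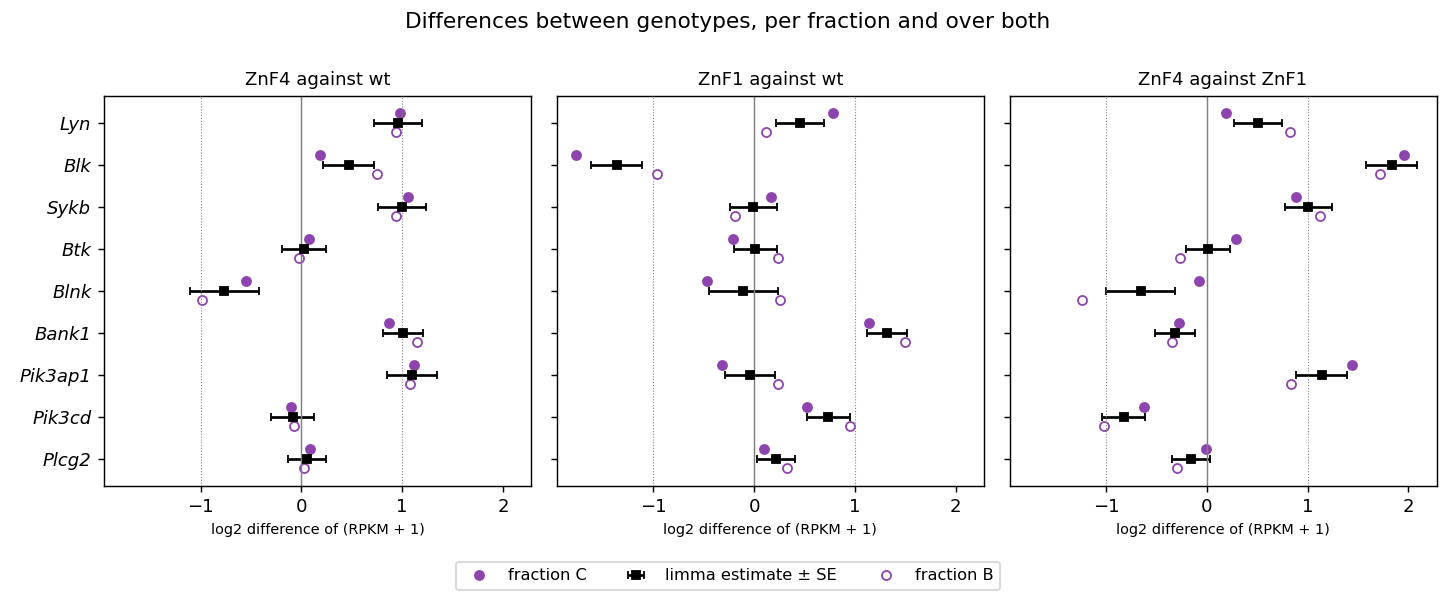
Log2 difference of (RPKM + 1) for each member in 3 comparisons of genotypes, with fraction C (filled circles), fraction B (open circles) and the limma estimate over both with its standard error (squares), and dotted lines at 2-fold. Blk lies right of 0 for ZnF4 against wt (0.47) and left for ZnF1 against wt (-1.36), while Bank1 lies right of 0 in both (1.01 and 1.32).

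Along the step between fractions, 6 of the 9 members were lower in fraction C than in fraction B in all 3 genotypes (Sykb, Btk, Blnk, Bank1, Pik3ap1 and Pik3cd), against 13.4% of genes kept, and 0 were higher in all 3 (12.2%). Bank1 was 1.90-fold lower in fraction C in ZnF4, 2.0-fold in ZnF1 and 1.56-fold in wt. Sykb was 1.49-fold, 1.26-fold and 1.61-fold lower in the same order. Blnk was 1.11-fold lower in ZnF4, 2.49-fold in ZnF1 and 1.5-fold in wt. No member was at least 2-fold apart in all 3 genotypes (0.0274% of genes kept in each direction). In single genotypes, Blnk and Bank1 were at least 2-fold lower in fraction C in ZnF1 (4.16% of genes kept), and 0 members in ZnF4 (0.585%) or wt (1.01%). In ZnF1 the 12 B-lineage markers summed to 2707.8 RPKM in fraction C and 5614.2 in fraction B, and their part in these values was not tested. In limma the estimates were -0.86 for Bank1 (SE 0.16), -0.69 for Blnk (SE 0.28) and -0.53 for Sykb (SE 0.19), each with an adjusted p = 0.854. Limma called 0 of all genes for the fractions (0%), and 511 (4.67%) had an unadjusted p under 0.05, Sykb and Bank1 among them. Rescaled on B-lineage genes, which moved the median of all genes by 0.40, 6 members were higher and 3 lower in fraction C, where 92.9% of all genes were higher by that scaling.

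In every family except the Src kinases, 1 member held more RPKM than its relatives together. Sykb made up 94.5% to 99.3% of the RPKM of the Syk family, with Zap70, the T-cell relative, at 10.8 RPKM or less. Blnk held 80.0% of the SLP adaptors in the ZnF1 library of fraction C and 95.6% to 98.7% in the other 5. The difference lay with Lcp2 (SLP-76), the relative used by T and myeloid cells, at 38.3 RPKM in that library and between 2.3 and 10.9 in the others. Pik3cd held 66.7% to 82.1% of the class I catalytic subunits, with Pik3cg at 21.9 to 34.7 RPKM and Pik3ca at 12.7 to 22.7. Pik3cb was at 13.0 RPKM in the ZnF1 library of fraction C and at 1.8 or less elsewhere.

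Btk held 60.5% to 83.7% of the Tec family, and Tec itself stood at 27.2 RPKM in ZnF1 and 15.8 in wt in fraction C, and at 32.5 and 17.1 in fraction B. Bmx, a family member of myeloid and endothelial cells, was at 11.0 RPKM in the ZnF1 library of fraction C and at 1.3 or less in the others. Plcg2 held 61.8% to 83.8% of the phospholipase C gamma RPKM. Plcg1 was lower in ZnF4 than in wt in both fractions, at 22.1 and 37.2 RPKM in fraction C and 25.9 and 54.5 in fraction B, so the Plcg2 share was 83.8% in ZnF4 and 74.3% in wt in fraction C, and 79.4% and 64.2% in fraction B.

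The Src family was spread over more genes, and 7 of its kinases were described together, with shares taken of their summed RPKM. Lyn and Blk together with Fyn, Lck and Fgr accounted for nearly all of that sum, and Yes1 and Src stood at 0.7 RPKM or less. Blk held 40.3% (ZnF4), 12.9% (ZnF1) and 41.7% (wt) of the sum in fraction C, and 48.8%, 26.5% and 38.7% in fraction B. Lyn held 31.5%, 35.0% and 18.6% in fraction C and 34.0%, 34.5% and 23.6% in fraction B, above the wt share in each mutant library. Fgr, a Src kinase of myeloid cells, was at 68.3 RPKM in the fraction C library of ZnF1, where it made up 33.0% of the sum, and at 11.3 RPKM or less in the others. It was lower in ZnF4 than in wt, at 2.0 and 6.1 RPKM in fraction C and 1.4 and 11.3 in fraction B. Lck, like Blk, was lower in ZnF1 than in wt in both fractions, at 16.7 and 54.4 RPKM in fraction C, where its share was 8.08% and 24.4%. In fraction B, Lck was at 17.4 RPKM in ZnF1 and 31.8 in wt. Fyn was at 22.1 RPKM in ZnF1 and 27.6 in wt in fraction C, and at 38.3 and 36.0 in fraction B, while in ZnF4 it stood at 19.5 and 14.9, below both wt libraries.

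**Figure D4:**
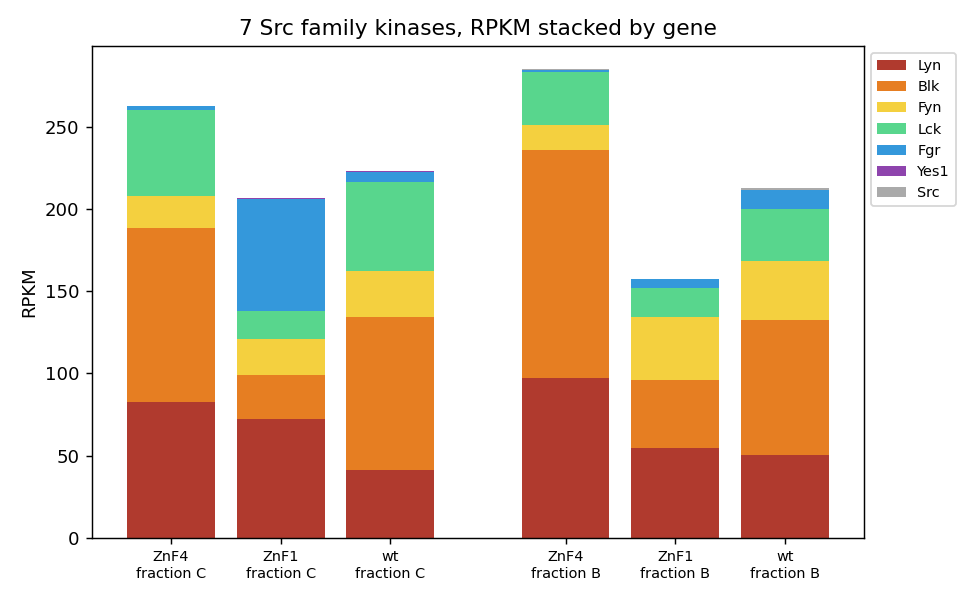
RPKM of 7 Src family kinases stacked by gene (linear axis from 0), 1 bar per library, with fraction C left of fraction B and ZnF4, ZnF1 and wt in that order within each. The stacks total 157.6 to 284.9 RPKM, Blk is narrowest in the ZnF1 library of fraction C (26.6 RPKM), and Fgr (68.3 RPKM) is widest there.

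Other genes of the pathway were described from 8 lists covering 114 kept genes. At least 2-fold higher in both fractions in ZnF4 than in wt were 9 of the 114 (7.89%, against 2.59% of all genes kept) and lower were 7 (6.14%, against 4.73%). For ZnF1 against wt the numbers were 3 (2.63%, against 0.758%) and 4 (3.51%, against 0.804%). The lists were chosen with earlier results of these data known, so these shares are a description and do not test the pathway. Of 8 receptor genes, Cd79b, the signalling chain that Lyn and Blk phosphorylate, was at 986.2 RPKM in ZnF4 and 396.8 in wt in fraction C and at 1277.2 and 622.3 in fraction B, the 1 receptor gene at least 2-fold higher. The receptor list had a median log2 difference of 0.72 in fraction C and 0.61 in fraction B for ZnF4, against -0.05 and -0.09 over all genes. For ZnF1 it was -0.33 and 0.71.

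The inhibitory list, with 21 kept genes the longest of the 8 lists, also had the most genes past 2-fold in ZnF4 against wt. Of the 21, 5 were higher (2.59% of all genes kept) and 3 lower (4.73%). Fcgr2b, the inhibitory Fc receptor, was 3.53-fold and 2.95-fold higher (fractions C and B), Cd72, an inhibitory receptor, 2.70-fold and 2.88-fold, and Siglecg, a sialic acid receptor that restrains Lyn-dependent signalling, 2.61-fold and 2.62-fold. Lax1, a negative adaptor, was 7.69-fold and 12.7-fold lower, Dok2, an adaptor that restrains Ras, 3.50-fold and 5.91-fold, and Ptpn22, a phosphatase acting on Src kinases, 2.54-fold and 4.29-fold. These 3 were low in ZnF4, with Lax1 at 2.2 and 1.2 RPKM and Ptpn22 at 1.8 and 1.1. Dok2 was at 0.4 and 0.1 RPKM there, near the rounding step of 0.1. In ZnF1, Dok2 (5.65-fold and 2.45-fold), Ptpn22 (2.75-fold and 2.18-fold) and Fcgr2b (3.0-fold and 2.01-fold) were higher than in wt, and Inppl1, a lipid phosphatase (6.91-fold and 4.50-fold), and Cd72 (2.98-fold and 2.86-fold) lower. Limma with all 6 libraries called 6 of these 21 between the mutants (1.82% of all genes). Among them Inppl1 (log2 3.86, SE 0.26, adjusted p = 0.0359) and Cd72 (3.03, SE 0.21, 0.0359) were higher in ZnF4 than in ZnF1, and Dok2 (-4.08, SE 0.35, 0.0377), Ptpn22 (-3.01, SE 0.26, 0.0377) and Lax1 (-3.18, SE 0.30, 0.0377) lower. For each mutant against wt, limma called 0 genes of the 8 lists. The ZnF1 library of fraction C, whose granulocyte and monocyte markers summed to 44735.5 RPKM, enters the ZnF1 values. These markers, and those of NK and cytotoxic cells, summed lower in ZnF4 than in wt. The part of such cells in the values of the inhibitory genes was not tested.

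The 5 lists downstream of the members kept 80 genes, of which 3 (3.75%) were at least 2-fold higher in both fractions in ZnF4 than in wt and 3 (3.75%) lower, near the 2.59% and 4.73% of all genes kept. In the adaptor list Lcp2 was 2.16-fold and 3.61-fold lower in ZnF4 than in wt, and Lat, the T-cell linker, 2.81-fold and 3.89-fold lower in ZnF1. In the phosphoinositide 3-kinase list Pik3r6, a regulatory subunit of Pik3cg, stood at 1.1 RPKM in ZnF4 and 4.9 in wt in fraction C and at 0.5 and 6.4 in fraction B. Of the exchange factors that activate Ras below Plcg2, Rasgrp1 was 2.57-fold and 2.52-fold higher in ZnF4 than in wt, while Rasgrp2, which acts mainly on Rap, was 2.06-fold lower in both. Nfkb2 (3.26-fold and 2.88-fold) and the inhibitor Nfkbia (2.49-fold and 2.05-fold) were higher in ZnF4 than in wt in the list of protein kinase C and NF-kB. Of 13 calcium genes, 0 were at least 2-fold apart from wt in both fractions in either mutant. Between the mutants Orai1, the pore of store-operated calcium entry, was 3.87-fold and 3.15-fold lower in ZnF4 than in ZnF1 (limma adjusted p = 0.0491), and Itpr2, a calcium release channel, 2.22-fold and 2.28-fold higher (0.0547).

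The members did not share 1 profile over the 6 libraries. Of the 36 pairs, 22 had a positive and 14 a negative Pearson correlation of log2(RPKM + 1), with a median of 0.21, given as a description of 6 libraries that share genotypes and fractions. The closest pair was Sykb and Pik3ap1 (r = 0.92), followed by Lyn and Sykb (0.77), and the most opposed were Blk and Pik3cd (-0.69) and Lyn and Blnk (-0.67). The gene closest to Blk was Znf512b (r = 0.998), to Pik3ap1 Mterfd3 and to Sykb A930001N09Rik, each the highest among all genes kept over 6 points. The 5 genes closest to the mean standardised profile of the members were Creld1 (r = 0.997), Plekhm2, Cep170, Cd79a, the partner of Cd79b in the receptor (0.98), and Sorcs2. That mean described the members unevenly, and their own r to it ran from 0.17 for Plcg2 to 0.84 for Bank1.

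Lyn, Sykb and Pik3cd had further transcripts in the table. The second Lyn transcript stood at 0.7 RPKM or less and the second Sykb transcript at 1.3 or less in every library. Of the 4 other Pik3cd transcripts the highest reached 6.2 to 17.8 RPKM and was, like the one used, highest in the ZnF1 library of fraction B. How reads shared by transcripts were divided is not given in the sources used here, so these low values do not measure isoform use.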

How the data were processed

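The authors deposited RPKM values for RefSeq transcripts, per the file headers, rounded to 0.1. Per the submitters' processing notes, the tools were TopHat and bedtools and the build mm9. Their versions, the denominator, strand use and the division of shared reads were not given in the sources used here. Of 26532 entries, 1 had no gene name and was dropped. There were 0 columns of other samples.

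Depth is unknown: tested on short transcripts, at best 24.2% to 48.6% of low values could be whole reads in 5 libraries, against 16.6% to 39.6% by chance, so no intervals for counting are given. RPKM sums per library ran from 262648.6 to 355822.4.

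The transcript with the highest mean was kept per symbol, and 10943 genes averaging 1 RPKM or more were tested. limma 3.58.1 (R 4.3.3; lmFit, eBayes with trend) was fitted to log2(RPKM + 1) with genotype and fraction as additive terms, leaving 2 residual degrees of freedom, and p-values were adjusted by Benjamini-Hochberg over all genes. They measure only the spread between these libraries, through genotype effects that differ between fractions. The model was tested on simulated data, where every gene had the same spread and genotype effects did not differ between fractions. That simulation does not show how the model performs on the spread of these libraries. Genes are called 2-fold apart when log2(RPKM + 1) differs by at least 1 in the same direction in both fractions.

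The members, lists, markers and motifs were chosen with earlier results of these data known. Named genes are the members, their family paralogs, up to 3 genes per direction and list at least 2-fold apart in both fractions, and the closest profiles. Alternatives were pseudocounts of 0.25 and 4, no filter, 2 rescalings, summed transcripts, only the libraries compared and each library left out. Promoter windows are from RefSeq (GRCm38.p6). Some planned items are not reported here.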

Additional observations from a re-analysis of the deposited data

Results flagged for a closer look

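Several members stood on opposite sides in the 2 fractions or between genotypes. Each value is a log2 difference of (RPKM + 1) between 2 libraries, and none of these differences between effects was tested. For ZnF1 against wt, Blnk was at -0.47 in fraction C and 0.26 in fraction B, Pik3ap1 at -0.32 and 0.24, Btk at -0.21 and 0.24, and Sykb at 0.17 and -0.19. For ZnF4 against wt, Btk was at 0.078 in fraction C and -0.027 in fraction B, and for ZnF4 against ZnF1 it was at 0.29 and -0.27.

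For fraction C against fraction B, Lyn was at -0.23 in ZnF4, 0.40 in ZnF1 and -0.27 in wt, Blk at -0.39, -0.63 and 0.17, and Plcg2 at 0.20, -0.088 and 0.14. The ZnF1 library of fraction C, whose granulocyte and monocyte markers summed to 44735.5 RPKM, enters all of these values for ZnF1, and its part in them was not tested.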

How the results depend on the processing

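Over the alternatives, 398 values of single members kept their direction and side of the threshold, 31 newly passed and 30 changed sign, while 99 counts stayed within 1.5 times their value and 23 did not. Rescaling on 8 B-lineage genes moved the count of members at least 2-fold higher in both fractions in ZnF4 than in wt to 0 and lower to 1, in ZnF1 below wt to 1, and in ZnF4 against ZnF1 to 0 higher and 2 lower. It gave ZnF4 against wt values of -0.20 for Blk, -0.64 for Btk and -0.61 for Plcg2, ZnF4 against ZnF1 values of -0.20 for Lyn and -0.69 for Btk, 0.026 for Sykb in ZnF1 against wt, and for fraction C against B 0.41 for Lyn, 0.15 for Blk, 0.19 for Btk, 0.053 for Pik3ap1 and 0.028 for Pik3cd (log2). Rescaling on all genes gave 2 members higher in ZnF4 than in wt, 1 lower in ZnF1 than in wt, 0.033 for Sykb in ZnF1 against wt and 1 limma call (Blk) between the mutants. A pseudocount of 0.25 gave 2 members higher in ZnF4 than in wt and 1 limma call between the mutants, and a pseudocount of 4 gave 0 higher in ZnF1 than in wt. The causes were not tested.

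The 4 ZnF4 and wt libraries alone gave 5 limma calls. Single fractions, chosen after seeing the data, gave 2 members higher in ZnF4 than in wt in each, 1 lower in ZnF1 than in wt in fraction C, and for ZnF4 against ZnF1 2 higher in each and 2 lower in fraction B.

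Leaving out each library in turn gave 0 to 5 limma calls for ZnF4 against wt, 0 to 4 for ZnF1 against wt, 0 to 6 for ZnF4 against ZnF1 and 0 for the fractions. The lone library of a genotype is then assumed to vary like the others. Where that genotype is not in the comparison, the fit nearly repeats that of the 4 libraries compared and is no separate check. Signs changed for ZnF4 against wt in Btk (-0.14 to 0.19), Pik3cd (-0.20 to 0.028) and Plcg2 (-0.028 to 0.15). For ZnF1 against wt they changed in Sykb (-0.16 to 0.14), Btk (-0.24 to 0.27), Blnk (-0.58 to 0.36) and Pik3ap1 (-0.33 to 0.25). They also changed for ZnF4 against ZnF1 in Btk (-0.24 to 0.27) and for the fractions in Lyn (-0.25 to 0.089). Without a change of sign, Blnk ran from -1.17 to -0.37 and Blk from 0.13 to 0.81 for ZnF4 against wt, Lyn from 0.13 to 0.78 for ZnF1 against wt, and Blnk from -1.13 to -0.19 and Lyn from 0.18 to 0.83 for ZnF4 against ZnF1.

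No paired analysis was possible because each genotype and fraction has 1 library, all numbered 1, so the replicate numbers pair nothing. Libraries of a fraction are set against each other through the fraction term of the model. With unknown depth, values near 0.1 RPKM, the rounding step, carry no order. The limma fit to all 6 libraries has 2 residual degrees of freedom. Fits without a library, and those to 4 libraries, have 1, and the calls of several members at once come from these.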
